A study of Homo sapiens with 12 samples.

Results

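The genes described here are 54 human genes with very long gene bodies. They are listed by name and were each read from a single probe set, chosen by its values: of the probe sets paired with exactly 1 gene symbol, the one with the highest mean log2 signal over the 12 arrays of the study. The list was drawn up with earlier results of these data in view, so counts over it are a description. Of the 54 genes, 51 had such a probe set. The mean signal of 42 of them passed a filter on dim genes (a signal of 49.31, the 40th percentile), and these 42 are among the 13673 genes tested. Their gene bodies, from first to last transcribed base in RefSeq (assembly GRCh38.p14), ran from 317.3 kb (EXT1) to 2474 kb (RBFOX1), with a median of 855.6 kb. The median over all genes tested was 29.2 kb. Just inside the filter lay FHIT, with a mean signal of 56.2 over the 12 arrays, and RBFOX1, with 63.0. Just outside lay NCKAP5, with 41.7, and ERBB4, with 35.7.

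Transcripts were measured in U2OS, an established human osteosarcoma cell line that carries wild-type p53, on Affymetrix U133 Plus 2.0 arrays. There were 12 arrays in 4 groups of 3, each taken after 24 hours. Untreated cells were the control for cells given 0.6 µg/ml doxorubicin, which poisons topoisomerase II and breaks DNA. Cells in 0.1% DMSO were the control for cells given 10 µM nutlin-3, which frees p53 from its inhibitor MDM2 without breaking DNA. All 4 groups are the same line in the same medium, and nothing in the labels says whether arrays of a group came from separate cultures. The p-values thus reflect the scatter of these arrays alone, and that scatter may be technical. The unit throughout is the deposited signal intensity, a linear brightness per probe set, and changes are differences of log2(signal + 16), which understate the change of dim genes. Genes with a limma p under 0.05, after Benjamini-Hochberg adjustment over all 13673 genes, are termed called.

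RNA polymerase II transcribes a gene body at a limited speed, so a gene of this length takes many hours to copy from end to end. Long genes are therefore known as a class that depends on topoisomerases, which remove the supercoils ahead of the polymerase, and that is exposed to DNA breaks and blocked elongation. Several of them, FHIT and WWOX among them, span common fragile sites, chromosome regions that break when replication is slowed. Their products include cell adhesion proteins, receptor phosphatases, polarity scaffolds and membrane traffic proteins, many of them studied first in neurons.

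After doxorubicin, most of the measured very long transcripts were lower, and after nutlin-3 few were. Of the 42 genes tested, 32 (76.2%) were called lower with doxorubicin, beside 25.6% of all genes tested, and 7 (16.7%) were called higher, beside 30.1%. At least 2-fold lower were 25 of them (59.5%), beside 6.47% of all genes. With nutlin-3, 7 (16.7%) were called lower, beside 13.9% of all genes, and 5 (11.9%) were called higher, beside 12.5%. The difference between the responses was called lower for 30 (71.4%), beside 17.7%, and higher for 1, beside 21.8%. In bulk RNA, fewer expressing cells and less RNA per cell cannot be told apart.

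The median change of the 42 genes was -1.17 with doxorubicin on the log2 scale, with quartiles of -1.48 and -0.33 and a range from -3.47 to 2.00. The median over all genes tested was 0.08. Array by array, the median difference of these genes from the untreated mean was -1.14, -1.13 and -1.12 on the doxorubicin arrays. It lay between -0.02 and 0.01 on the untreated arrays, between -0.10 and -0.08 with DMSO and between -0.08 and -0.06 with nutlin-3. The doxorubicin arrays thus stood apart from all the others by about the same amount each. With nutlin-3 against DMSO the median change was -0.0073, beside 0.0056 over all genes, and 21 of the 42 genes lay below 0.

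**Figure D1:**
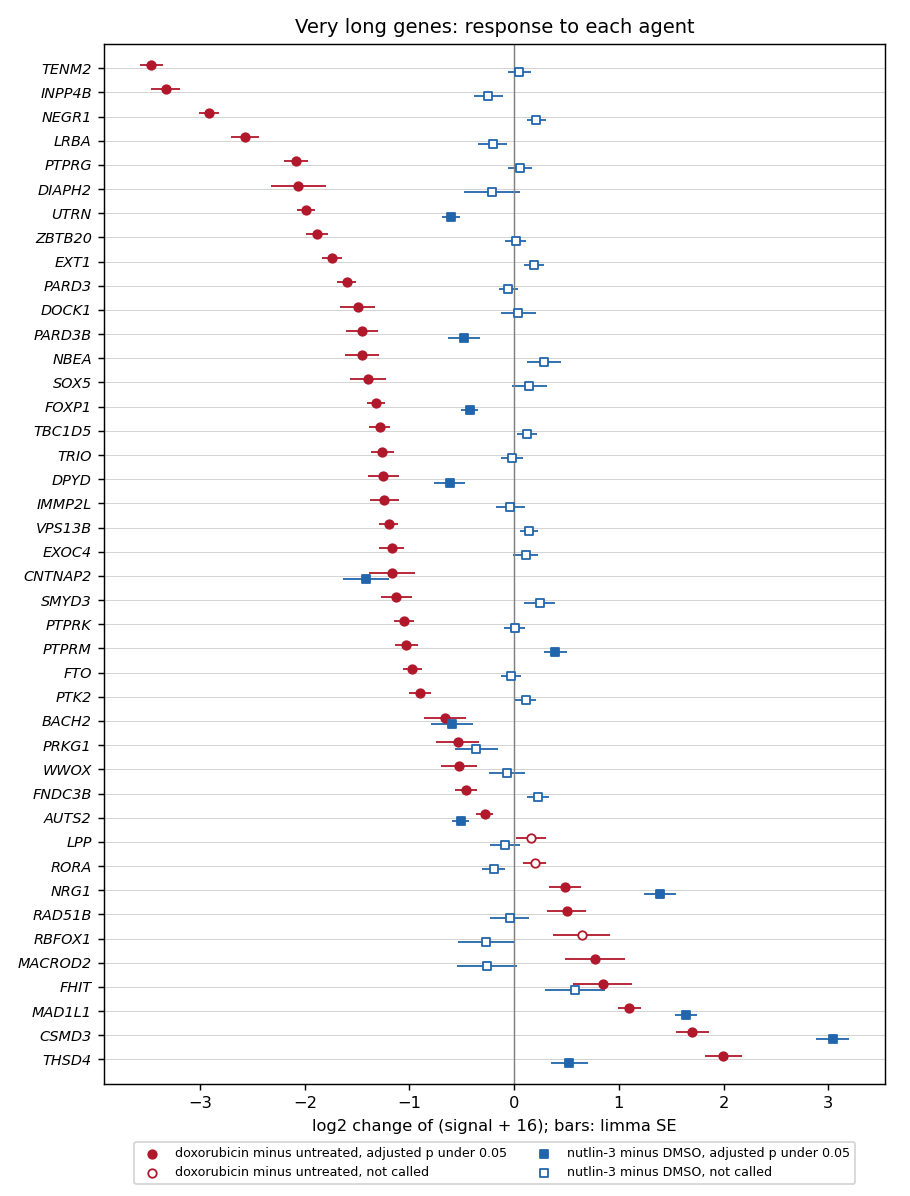
Log2 change (x axis, difference of log2 of signal + 16) of each of the 42 very long genes tested, with doxorubicin against untreated cells (red circles) and with nutlin-3 against DMSO (blue squares). Bars are limma standard errors, filled symbols were called at an adjusted p under 0.05, and 32 red circles on the left of 0 are filled against 7 blue squares.

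The line and the arrays were checked first. Of 10 genes that mark osteosarcoma or mesenchyme, 6 passed the filter. COL1A1, SPARC and VIM were among them, while COL1A2, ALPL and SP7 lay below it in the mean. The actin control probe sets, whose 3' to 5' signal ratio rises when RNA is shorter or less fully copied, had a ratio of 1.53 ± 0.0754 (SD, n = 3) on the untreated arrays and 3.12 ± 0.577 on the doxorubicin arrays. Each doxorubicin array (2.48, 3.29 and 3.59) lay above each untreated one, with an exact 2-sided permutation p of 0.1, the smallest that 3 arrays against 3 allow. The GAPDH ratio was 1.02 ± 0.0356 and 1.07 ± 0.116 (exact permutation p = 0.6), and the actin ratio was 1.28 ± 0.0281 with DMSO and 1.31 ± 0.0260 with nutlin-3. The ratio of dap, another control, was 2.71 ± 0.279 on the untreated arrays and 5.79 ± 2.54 with doxorubicin (3.47, 5.41 and 8.51), again with no overlap and an exact permutation p of 0.1. With the array of the lowest actin ratio as the only doxorubicin array, 30 of the 42 very long genes were lower, 5 were higher and the median was -1.17. That fit takes the spread of the lone array from the other groups, and its actin and dap ratios, 2.48 and 3.47, still lay above every untreated array. Within groups, arrays correlated at 0.98 to 0.991 across genes.

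Promoter sequences are shown for 3 of the genes, because both agents raise the activity of p53 and the very long genes moved in both directions. The 3 were picked by name and do not stand for the other genes. RefSeq promoters (GRCh38.p14, 250 bases before the start and 50 after it) matched 45 of the 54 genes. The motif searched was the p53 half-site, the 10-letter element that p53 binds in pairs, which reads as itself on the other strand, so 1 search covers both strands. Capitals mark each match. DIAPH2, lower with doxorubicin, held 2 matches. EXOC4, also lower, held 1. MAD1L1, higher with both agents, held none in this window.
DIAPH2, chrX:96684592-96684891, plus strand: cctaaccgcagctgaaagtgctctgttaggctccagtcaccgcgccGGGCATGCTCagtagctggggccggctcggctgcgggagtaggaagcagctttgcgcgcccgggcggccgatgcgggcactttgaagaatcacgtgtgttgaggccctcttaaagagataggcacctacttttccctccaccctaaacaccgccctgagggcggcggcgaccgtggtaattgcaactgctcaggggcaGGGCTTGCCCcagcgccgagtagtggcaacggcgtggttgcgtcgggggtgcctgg
EXOC4, chr7:133252828-133253127, plus strand: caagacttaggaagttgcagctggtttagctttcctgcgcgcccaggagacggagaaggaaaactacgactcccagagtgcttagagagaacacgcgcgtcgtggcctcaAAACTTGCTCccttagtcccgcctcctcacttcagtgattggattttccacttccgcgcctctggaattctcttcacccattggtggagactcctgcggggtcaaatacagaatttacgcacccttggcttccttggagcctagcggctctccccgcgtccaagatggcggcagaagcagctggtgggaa
MAD1L1, chr7:2232896-2233195, minus strand: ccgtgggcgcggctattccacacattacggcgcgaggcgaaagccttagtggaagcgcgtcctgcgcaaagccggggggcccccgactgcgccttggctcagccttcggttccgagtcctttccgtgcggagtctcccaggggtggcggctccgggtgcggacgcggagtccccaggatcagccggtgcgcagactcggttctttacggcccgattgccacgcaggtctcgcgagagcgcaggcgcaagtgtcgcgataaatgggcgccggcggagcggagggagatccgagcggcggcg

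A p53 half-site was found in 9 of the 45 promoters (20.0%), beside 1786 of all 27305 promoters in the table (6.54%). In genes with several starts the listed window can lie deep inside the gene, 1171 kb from the outermost start for FHIT. Among the 32 windows within 1 kb of the outermost start, 4 held the half-site (12.5%, beside 6.49% of such windows). Of the genes called lower with doxorubicin 7 of 27 promoters held it, and of those called higher 0 of 5, which are too few to compare. That split was not limited to windows within 1 kb of the outermost start. Among the 7, the windows of INPP4B, TENM2, PRKG1 and TBC1D5 lay 441, 94.2, 83.6 and 1.72 kb inside the gene. Whether the half-site goes with the direction of change was not tested. The median number of CpG dinucleotides in the window was 27 for these genes and 14 over all promoters. TATAAA, the core of the TATA box, which was searched on both strands and is not contained in the half-site, was in 3 of 45 (6.67%), beside 3264 of 27305. A match is a run of letters and was not tested for binding.

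Receptor tyrosine phosphatases remove phosphate from tyrosine at cell contacts, with an outer part that can bind like a cell adhesion molecule. Of the 4 listed, PTPRD was under the filter and all 3 tested were lower with doxorubicin. Counts in this and the following groups stand beside 76.2% lower and 16.7% higher with doxorubicin among all 42 genes. Over all genes tested these shares were 25.6% and 30.1%. No group was tested as a set. PTPRG had signals of 4185, 3769.9 and 3759 on the untreated arrays, 928, 766 and 1055 with doxorubicin, 2688, 2129 and 2405 with DMSO and 2630.2, 2523 and 2326 with nutlin-3. The doxorubicin arrays lay below all others, and both solvent groups lay below the untreated arrays. Its change with doxorubicin was -2.08 (SE 0.11, limma adjusted p = 1.5e-10), a 4.23-fold fall, and that of DMSO against untreated was -0.70 (adjusted p = 0.0007). PTPRK fell by 1.05 with doxorubicin and stood at 0.0042 with nutlin-3, which was not called.

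PTPRM, a phosphatase that binds its own kind across cell contacts, was called lower with doxorubicin and higher with nutlin-3, as was no other of the 42 genes in the probe set that stands for it. Of all genes tested, 1.39% were called in that way. Its signals were 4341, 3121 and 3182 untreated, 1792, 1583 and 1757 with doxorubicin, 4068, 3629 and 3892 with DMSO and 5528, 4746 and 4971 with nutlin-3. No doxorubicin array overlapped its controls, and no nutlin-3 array overlapped the DMSO arrays. The changes were -1.03 (SE 0.11, limma adjusted p = 6.6e-07) and 0.39 (SE 0.11, adjusted p = 0.015), with a difference of -1.42 (adjusted p = 3e-06). Its second probe set, 203329_at, was called in the same directions, at -1.40 and 0.35. The nutlin-3 rise was lost without DMSO replicate 2 or nutlin-3 replicate 1, at 0.35 and 0.33. Outside the probe sets that stand for genes, 3 of FNDC3B were also called lower with doxorubicin and higher with nutlin-3.

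Adhesion molecules and neuronal surface proteins held the deepest fall. Of 6 listed genes 4 were tested, of which 3 fell with doxorubicin and 1 rose. TENM2, a teneurin that joins neurons at contacts, had signals of 18406, 15705 and 17103 untreated, 1324, 1616 and 1663 with doxorubicin, 15646, 13435 and 13290.3 with DMSO and 16527, 14701 and 12751 with nutlin-3. The doxorubicin arrays were far dimmer than the rest, and the nutlin-3 and DMSO arrays overlapped. TENM2 changed by -3.47 (SE 0.11, limma adjusted p = 3.2e-13), 11.1-fold down, against 0.05 with nutlin-3 (adjusted p = 0.79).

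NEGR1, a membrane-anchored adhesion protein of growing neurites, read 1787, 1738 and 1752 untreated and 233, 206 and 219 with doxorubicin, 3248, 2774 and 2937 with DMSO and 3450.4, 3805 and 3138 with nutlin-3. It fell by 2.92 with doxorubicin (SE 0.09, limma adjusted p = 4.1e-13), and all of its 3 probe sets were called lower. DMSO alone raised it by 0.76 (adjusted p = 8.9e-05), and each DMSO array was brighter than each untreated one. No change with nutlin-3 was called (0.21, adjusted p = 0.11).

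CNTNAP2, a neurexin relative that clusters potassium channels on axons, was lower with both agents. It read 169, 232 and 178 untreated and 82.8, 72.0 and 75.1 with doxorubicin, 153, 130.2 and 169 with DMSO and 35.6, 55.5 and 49.3 with nutlin-3, with no overlap in either comparison. The changes were -1.17 (SE 0.22, limma adjusted p = 0.00021) and -1.42 (SE 0.22, adjusted p = 9.1e-05), and they did not differ by the test (0.25, SE 0.31, adjusted p = 0.56). All of its 3 probe sets were called lower with each agent. Among these 42 genes it had the largest fall with nutlin-3.

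CSMD3, a large membrane protein with complement-like modules, rose with both agents. Its signals were 108, 96.3 and 146 untreated, 435, 354 and 449 with doxorubicin, 81.3, 91.0 and 76.7 with DMSO and 851, 771 and 778 with nutlin-3, so the nutlin-3 arrays were brightest and no treated array overlapped its control. It rose by 1.70 with doxorubicin (SE 0.16, limma adjusted p = 1.1e-07) and by 3.04 with nutlin-3 (SE 0.16, adjusted p = 7.4e-10, 8.25-fold). The doxorubicin response was smaller by 1.34 on the log2 scale (adjusted p = 0.00017). LRP1B, a giant lipoprotein receptor relative, was under the filter at a mean of 6.50 and CDH13 had no single-gene probe set.

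**Figure D2:**
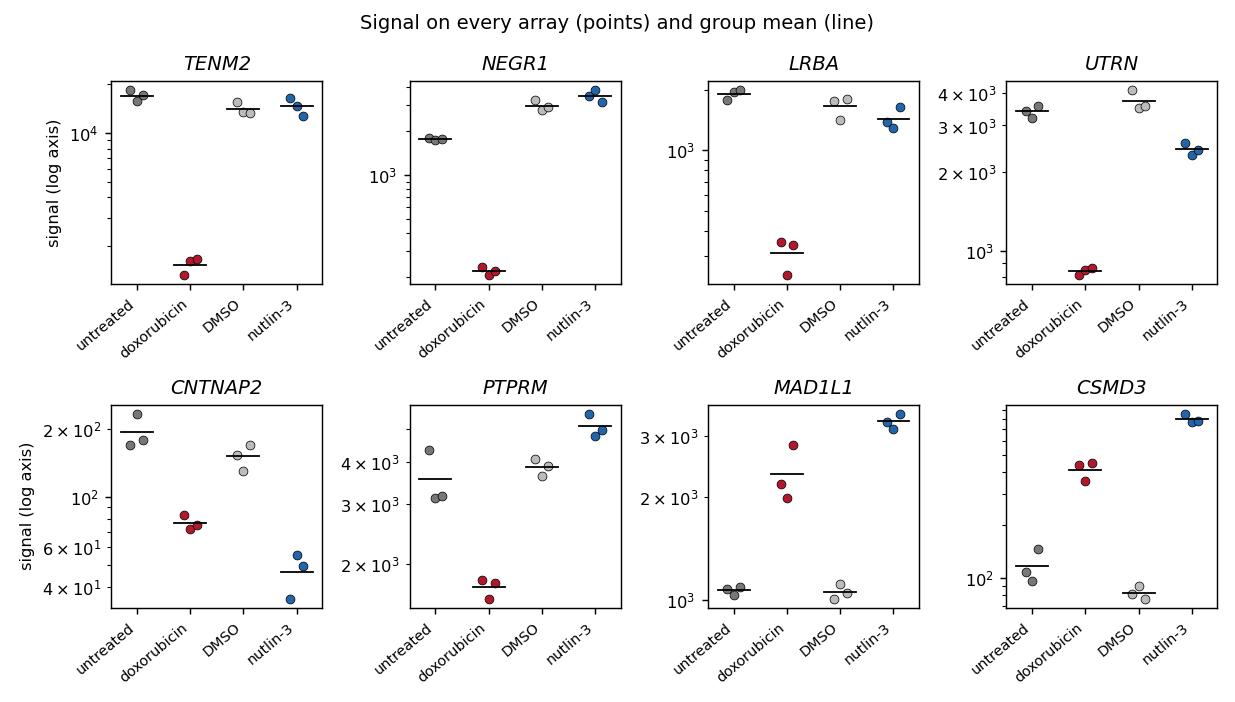
Signal (y axis, log scale) of 8 very long genes on each of the 12 arrays, with points for arrays and a line for the mean of 3, in untreated, doxorubicin, DMSO and nutlin-3 cells. TENM2, NEGR1, LRBA and UTRN show doxorubicin arrays far below the rest, PTPRM moves in opposite directions, CNTNAP2 is lower with both agents and MAD1L1 and CSMD3 are higher with both.

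Junction, polarity and cytoskeleton linkers were the group with most genes out of reach. Of 10 listed, DMD, DLG2, CTNNA3 and NCKAP5 were under the filter and MAGI1 and MAGI2 had no single-gene probe set. Of the 4 tested, 3 fell with doxorubicin. UTRN encodes utrophin, which ties actin to the membrane as dystrophin does in muscle. It read 3409, 3198 and 3573 untreated, 811, 846 and 864 with doxorubicin, 4083, 3510.3 and 3546 with DMSO and 2564, 2318 and 2425 with nutlin-3, with both treated groups below their controls. It fell by 1.99 with doxorubicin (SE 0.08, limma adjusted p = 8.4e-12) and by 0.60 with nutlin-3 (SE 0.08, adjusted p = 3.9e-05), and the doxorubicin fall was deeper by the test (-1.39, adjusted p = 2e-07).

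PARD3 and PARD3B are scaffolds that set up the apical pole of cells. PARD3 fell by 1.60 with doxorubicin, with all 4 of its probe sets called lower, and with nutlin-3 its change was -0.05, not called. PARD3B read 451, 386 and 496 untreated and 154, 138 and 163 with doxorubicin, 309.7, 301 and 408 with DMSO and 249, 249 and 215 with nutlin-3, with no overlap in either comparison. It fell by 1.45 with doxorubicin (limma adjusted p = 3.9e-07) and by 0.48 with nutlin-3 (adjusted p = 0.027), a call lost without DMSO replicate 3 or nutlin-3 replicate 3 and with the mean of its probe sets (-0.20).

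LPP, a zyxin relative at focal adhesions, showed how much the choice of probe set can decide. The probe set that stands for it, 214902_x_at, read 1297, 1012 and 1131 untreated and 1489, 1150.5 and 1215 with doxorubicin, with overlap and a change of 0.16 (limma adjusted p = 0.35). All of the other 5 were called lower, from -1.06 to -2.59. The mean signal of 224811_at went from 1511 ± 55.4 untreated to 242 ± 55.2 with doxorubicin (SD, n = 3). When any doxorubicin array was left out, another probe set had the highest mean and the LPP change lay between -2.40 and -1.69.

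Growth factor, kinase and GTPase signalling genes fell in 6 of 7 tested, with 1 rise, and ERBB4 was under the filter. INPP4B, a phosphatase that dampens PI3K signalling, read 1753, 1859.6 and 1743 untreated, 183, 122 and 195 with doxorubicin, 1168, 1319 and 1451 with DMSO and 1013, 1123 and 1167 with nutlin-3. The doxorubicin arrays were lowest by a wide gap. It fell by 3.33 (SE 0.14, limma adjusted p = 6.9e-12), 10-fold, and with nutlin-3 its change was -0.25 (adjusted p = 0.22), although the nutlin-3 arrays lay under the DMSO arrays.

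DIAPH2, a formin that builds actin filaments, read 252, 374 and 260.0 untreated and 26.1, 76.4 and 85.7 with doxorubicin, 264, 327 and 253 with DMSO and 251, 237 and 229 with nutlin-3. Its doxorubicin arrays varied more among themselves, from 26.1 to 85.7. It fell by 2.06 with doxorubicin (SE 0.26, limma adjusted p = 4.3e-06). TRIO, an exchange factor for small GTPases, fell by 1.26, and 6 of its 7 probe sets were called lower.

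PTK2, which encodes focal adhesion kinase, fell by less. It read 4815, 4859 and 5163 untreated and 2286, 2465 and 3256 with doxorubicin, 6246, 6310.1 and 5854 with DMSO and 6714, 6321 and 6821 with nutlin-3, and the doxorubicin arrays lay below all controls. The change was -0.90 (SE 0.10, limma adjusted p = 1.3e-06), with 2 of its 4 probe sets called lower and none higher.

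DOCK1, an exchange factor for Rac in cell migration, read 305, 351.1 and 329 untreated and 138, 78.7 and 109 with doxorubicin, 305, 373 and 329 with DMSO and 377, 316 and 343 with nutlin-3. That probe set fell by 1.49 (SE 0.17, limma adjusted p = 1e-06), while another, 241708_at, rose by 1.02 (adjusted p = 0.00059) and also rose with nutlin-3 by 0.91. The gene therefore has called probe sets in opposite directions with doxorubicin, and the mean of its probe sets changed by 0.01. PRKG1, the cGMP-dependent kinase, changed by -0.54 (adjusted p = 0.031) with overlapping arrays, and this call was lost when untreated replicate 3, doxorubicin replicate 2 or doxorubicin replicate 3 was left out.

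NRG1, the neuregulin that binds ERBB3 and ERBB4, rose with both agents. Its signals were 385, 416 and 479.5 untreated, 692, 570.4 and 555 with doxorubicin, 504, 406 and 628 with DMSO and 1268, 1210.2 and 1601 with nutlin-3, with no overlap in either comparison. The rise was 1.39 with nutlin-3 (SE 0.15, limma adjusted p = 2.7e-06) and 0.49 with doxorubicin (SE 0.15, adjusted p = 0.012), and the responses differed by -0.90 (adjusted p = 0.0032). With nutlin-3, 3 of 4 probe sets were called higher, and with doxorubicin 1 of 4. The rise with doxorubicin was lost under median centring, against the DMSO arrays and without doxorubicin replicate 1. It was also lost with the mean of the NRG1 probe sets (0.11, adjusted p = 0.567). Without _x_at or _s_at probe sets, NRG1 was called neither with doxorubicin (0.18, adjusted p = 0.563) nor with nutlin-3 (0.55, adjusted p = 0.11). The difference was not called there either (-0.38, adjusted p = 0.418).

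Transcription, chromatin and splicing regulators fell with doxorubicin in 6 of 8 tested, with none higher. With nutlin-3 they fell in 3, beside 13.9% of all genes. ZBTB20, a zinc finger repressor, read 4053, 4252 and 3692 untreated, 1065, 1162 and 989 with doxorubicin, 2462, 2558 and 2421 with DMSO and 2949, 2359 and 2267 with nutlin-3. It fell by 1.88 with doxorubicin (SE 0.10, limma adjusted p = 1.4e-10), and all of its 9 probe sets were called lower. DMSO against untreated gave -0.68 (adjusted p = 0.00036), so the doxorubicin arrays were lowest, the solvent arrays next and the untreated arrays highest.

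SOX5, a factor of cartilage and neuron development, showed the same order. It read 299.6, 368 and 374 untreated, 123, 113 and 128 with doxorubicin, 153, 182 and 208 with DMSO and 229, 212 and 166 with nutlin-3. Doxorubicin lowered it by 1.40 (SE 0.17, limma adjusted p = 2.4e-06) and DMSO gave -0.89 (adjusted p = 0.0024), the largest solvent change among these genes.

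FOXP1, a forkhead repressor, fell with both agents. It read 1824, 1992 and 1886 untreated and 745, 771 and 741 with doxorubicin, 1479.8, 1575 and 1618 with DMSO and 1156, 1209.9 and 1104 with nutlin-3, with no overlap in either comparison. The changes were -1.32 (limma adjusted p = 1e-09) and -0.42 (adjusted p = 0.00098), and the doxorubicin fall was deeper (-0.89, adjusted p = 1.7e-05). All of its 5 probe sets were called lower with doxorubicin.

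BACH2, a repressor best known in lymphocytes, and AUTS2, a chromatin regulator of brain development, were also called lower with both agents. BACH2 read 199, 165 and 169 untreated and 135, 105 and 83.4 with doxorubicin, 141, 139 and 139.9 with DMSO and 73.6, 98.9 and 91.0 with nutlin-3, a dim signal on every array. Its changes were -0.66 (limma adjusted p = 0.01) and -0.60 (adjusted p = 0.038). Leaving out doxorubicin replicate 1 or 3 lost the first call, as did the DMSO arrays as control (-0.35, adjusted p = 0.143). Leaving out any DMSO array, nutlin-3 replicate 1 or 3, untreated replicate 1 or doxorubicin replicate 1 lost the second, as did the mean of its probe sets (-0.35).

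AUTS2 read 3952, 3822 and 3391 untreated and 2981, 3214 and 2959.8 with doxorubicin, 2515, 2421 and 2443 with DMSO and 1869, 1665 and 1637 with nutlin-3, with no overlap in either comparison. The changes were small, -0.28 (limma adjusted p = 0.0088) and -0.51 (adjusted p = 0.00019), and DMSO against untreated gave -0.59 (adjusted p = 0.00026). Set against the DMSO arrays, the doxorubicin arrays were higher, at 0.31, so the direction for AUTS2 with doxorubicin turned with the control. The nutlin-3 call was lost with the mean of its probe sets (-0.19, adjusted p = 0.386), and 1 of the 3 was called lower. SMYD3, a methyltransferase, fell by 1.13 with doxorubicin.

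RORA, a nuclear receptor of the clock, and RBFOX1, a neuronal splicing factor, were not called with either agent. RORA changed by 0.20 (limma adjusted p = 0.15) in the probe set that stands for it, and 3 of its 6 probe sets were called higher and none lower. RBFOX1 changed by 0.65 (adjusted p = 0.054). SUPT3H, a subunit of the SAGA complex, was under the filter, with a mean signal of 27.1 untreated and 80.3 with doxorubicin, untested here.

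Recombination and spindle checkpoint genes were a group of only 2, MAD1L1 and RAD51B, both called higher with doxorubicin. For RAD51B this depended on the probe set, as 1 of its 3 was called higher, 1 lower and 1 neither. MAD1L1 encodes the MAD1 protein that loads the spindle checkpoint onto chromosomes. It read 1072, 1032 and 1091 untreated and 2179, 1982 and 2822 with doxorubicin, 1006, 1108 and 1042 with DMSO and 3307, 3159 and 3488 with nutlin-3. No treated array overlapped a control, and the nutlin-3 arrays were brightest. MAD1L1 rose by 1.10 with doxorubicin (SE 0.11, limma adjusted p = 2.1e-07) and by 1.64 with nutlin-3 (SE 0.11, adjusted p = 1e-08), and the responses differed by -0.54 (adjusted p = 0.01).

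RAD51B helps to repair broken DNA by recombination. It read 148, 136 and 203 untreated and 208, 218 and 281 with doxorubicin, 169, 210.1 and 150.0 with DMSO and 174, 159 and 174 with nutlin-3. The rise with doxorubicin was 0.50 (SE 0.19, limma adjusted p = 0.029), and the doxorubicin arrays overlapped the DMSO arrays. A second probe set, 216880_at, fell by 1.29 (adjusted p = 0.0016). The rise was lost under quantile scaling and median centring, against the DMSO arrays, and without untreated replicate 1, untreated replicate 2 or doxorubicin replicate 3.

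Membrane traffic genes fell with doxorubicin in all 5 tested, and none was called with nutlin-3. LRBA, a BEACH-domain protein that keeps receptors out of lysosomes, read 1775, 1942 and 1988 untreated, 350.2, 241 and 339 with doxorubicin, 1763, 1414 and 1800.2 with DMSO and 1378, 1294 and 1637 with nutlin-3. It fell by 2.57 (SE 0.14, limma adjusted p = 1.2e-10), 5.95-fold, with a change of -0.20 with nutlin-3 (adjusted p = 0.31). Its relative NBEA read 414, 306 and 309.9 untreated and 127, 87.4 and 133.2 with doxorubicin, 326, 315 and 342 with DMSO and 436, 404 and 369 with nutlin-3, and fell by 1.45 (adjusted p = 9.8e-07). For both, the doxorubicin arrays were below all controls.

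EXOC4, a subunit of the exocyst that docks vesicles, read 584, 602 and 739 untreated and 261, 306 and 258 with doxorubicin, 629, 702 and 645 with DMSO and 628, 765 and 748 with nutlin-3. It fell by 1.17 with doxorubicin (SE 0.12, limma adjusted p = 4.3e-07) in 1 of its 3 probe sets, the others uncalled. TBC1D5, which acts on endosome sorting, fell by 1.29, and VPS13B, a lipid transfer protein of the Golgi, by 1.20.

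Of 7 enzymes and metabolism genes tested, 5 were lower and 2 higher with doxorubicin, beside 76.2% and 16.7% of the 42 genes. EXT1, which builds heparan sulfate chains, read 5676, 4992 and 4540.4 untreated, 1351, 1585 and 1577 with doxorubicin, 4922, 4587 and 4693 with DMSO and 5918, 5103 and 5209 with nutlin-3. It fell by 1.74 with doxorubicin (SE 0.10, limma adjusted p = 1.9e-10), in all of its 3 probe sets. Its arrays with nutlin-3 lay just above those with DMSO, a change of 0.19 that was not called (adjusted p = 0.17).

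DPYD, the enzyme that breaks down pyrimidines and fluorouracil, was called lower with both agents. It read 306, 414 and 382 untreated and 141, 159.8 and 132 with doxorubicin, 456, 379 and 359 with DMSO and 241, 260.5 and 258 with nutlin-3, with no overlap in either comparison. The changes were -1.25 (limma adjusted p = 1.7e-06) and -0.61 (adjusted p = 0.0048). With the mean of its probe sets the nutlin-3 call was lost (-0.18, adjusted p = 0.396), and its second probe set was uncalled at 0.25. IMMP2L, a mitochondrial inner membrane peptidase, read 683, 666 and 690.0 untreated and 303, 225 and 316 with doxorubicin, 529.7, 591 and 662 with DMSO and 529, 673 and 538 with nutlin-3, and fell by 1.24 (adjusted p = 8.7e-07).

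FTO, the RNA demethylase linked to body weight, read 1834, 1903 and 1890.2 untreated and 897, 1081 and 878 with doxorubicin, 1732, 1944 and 1942 with DMSO and 1774, 1831 and 1895 with nutlin-3. All control and nutlin-3 arrays were close to each other and the doxorubicin arrays lay well below. It fell by 0.97 (SE 0.09, limma adjusted p = 1.3e-07), against -0.03 with nutlin-3 (adjusted p = 0.86).

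FHIT and MACROD2, which act on nucleotides and on ADP-ribose, were called higher with doxorubicin at dim signals. The mean signal of FHIT was 42.7 untreated and 39.2 with DMSO, both below the filter signal. It was 88.7 with doxorubicin and 66.6 with nutlin-3, so FHIT passed the filter through its treated arrays. FHIT read 41.1, 29.4 and 57.7 untreated and 69.5, 109 and 87.8 with doxorubicin, 39.4, 39.9 and 38.2 with DMSO and 65.4, 63.1 and 71.4 with nutlin-3, and rose by 0.85 (SE 0.28, limma adjusted p = 0.018). MACROD2 read 85.7, 80.8 and 131 untreated and 174, 252 and 125 with doxorubicin, 74.5, 75.4 and 63.9 with DMSO and 53.1, 38.8 and 85.4 with nutlin-3, with overlap, and rose by 0.77 (SE 0.29, adjusted p = 0.031). Both calls were lost under quantile scaling and median centring, and without untreated replicate 2 or doxorubicin replicate 2. That of MACROD2 was also lost without untreated replicate 1 or doxorubicin replicate 1.

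WWOX, an oxidoreductase with WW domains, read 309.6, 241 and 338 untreated and 257, 187 and 163 with doxorubicin, 244, 289.6 and 269.8 with DMSO and 239.6, 244 and 280.5 with nutlin-3, with overlap. It changed by -0.52 (SE 0.17, limma adjusted p = 0.016), and the call was lost without untreated replicate 3 or doxorubicin replicate 3 and against the DMSO arrays (-0.40, adjusted p = 0.0574). Its 4 probe sets were all called, 219077_s_at at -1.13 and 210695_s_at at -0.52 on the low side, and 223747_x_at at 1.62 and 223868_s_at at 0.66 on the high side.

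FHIT, WWOX, MACROD2, IMMP2L, EXOC4, DPYD, CNTNAP2 and NBEA are the tested genes among 12 listed as lying in common fragile sites. Of these 8, 6 were lower and 2 higher with doxorubicin, with a median of -1.17. Over all genes tested 25.6% were lower and 30.1% higher. All 42 very long genes had the same median with 76.2% lower, so these values do not set the fragile site genes apart. With nutlin-3, 2 were lower and none higher, beside 13.9% and 12.5% of all genes, with a median of -0.05. The other 4 of the 12 listed were under the filter. DMD, the dystrophin gene, read 26.9, 9.19 and 30.5 untreated, 25.9, 44.4 and 45.2 with doxorubicin, 4.91, 15.8 and 29.0 with DMSO and 13.9, 18.5 and 33.6 with nutlin-3. CTNNA3, an alpha-catenin of the heart, read 28.6, 23.7 and 39.0 untreated, 28.4, 59.4 and 20.1 with doxorubicin, 38.1, 4.87 and 40.01 with DMSO and 19.5, 26.5 and 43.4 with nutlin-3. NAALADL2 read 16.8, 13.2 and 19.2 untreated, 2.70, 40.4 and 3.98 with doxorubicin, 3.09, 1.04 and 10.6 with DMSO and 17.4, 8.02 and 14.7 with nutlin-3. In all 3 the doxorubicin arrays overlapped the untreated ones, and LRP1B read 2.38, 1.02 and 1.45 untreated, 2.71, 21.5 and 25.8 with doxorubicin, 15.1, 11.3 and 10.4 with DMSO and 0.735, 0.37 and 1.05 with nutlin-3. None of the 4 was tested.

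Matrix-related proteins split. THSD4, which promotes fibrillin assembly, read 119, 86.8 and 127 untreated, 451, 587 and 432 with doxorubicin, 119, 103 and 115 with DMSO and 157, 166 and 185 with nutlin-3. It rose by 2.00 with doxorubicin (SE 0.18, limma adjusted p = 6e-08), in both of its probe sets, and by 0.53 with nutlin-3 (SE 0.18, adjusted p = 0.036). It was the 1 gene with a higher difference (1.47, adjusted p = 0.0002). The nutlin-3 rise was lost under median centring, with the mean of its probe sets (0.29) and when any DMSO or nutlin-3 array was left out. FNDC3B, a membrane protein with fibronectin type III domains, changed by -0.46 with doxorubicin (adjusted p = 0.0013), with 4 of its 5 probe sets lower and 1 higher. With nutlin-3 its change was 0.22 (limma adjusted p = 0.13), but 3 of its 5 probe sets were called higher. These 3 were each called lower with doxorubicin. The nutlin-3 change was called with the mean of its probe sets (0.43, adjusted p = 0.005), with 6 arrays in the fit and without doxorubicin replicate 1.

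Read together across agents, 4 genes (9.52% of 42) were called higher with both (CSMD3, MAD1L1, NRG1 and THSD4), beside 8.25% of all genes tested. Under some alternatives NRG1 lost the call with each agent and THSD4 the call with nutlin-3. Lower with both were 7 (16.7%), beside 7.41% (AUTS2, BACH2, CNTNAP2, DPYD, FOXP1, PARD3B and UTRN). Of these, AUTS2, BACH2, DPYD and PARD3B lost the nutlin-3 call under some alternatives. BACH2 also lost the doxorubicin call under some, and the direction of AUTS2 with doxorubicin turned against the DMSO arrays (0.31). Lower with doxorubicin and uncalled with nutlin-3 were 24 (57.1%), beside 16.8%. FHIT, MACROD2 and RAD51B (7.14%) were higher with doxorubicin and uncalled with nutlin-3, beside 19.6%. LPP, RBFOX1 and RORA (7.14%) were called with neither, beside 37.1%. The comparisons of the agents share no array.

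DMSO against untreated cells gives the background of the solvent. Of the 42 genes 7 were called lower (16.7%), beside 5.98% of all genes, and 2 higher (4.76%), beside 8.14%. The comparisons with DMSO and with doxorubicin share the untreated arrays. The 5 largest solvent changes were those of SOX5, NEGR1, PTPRG, ZBTB20 and AUTS2, given above, and leaving out untreated replicate 2, DMSO replicate 1 or DMSO replicate 3 gave 5 calls in place of 9. With the DMSO arrays as the control, the median change of the 42 genes with doxorubicin was -1.03.

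Gene body length was set against the response over all genes tested, of which 13656 had a RefSeq length. The median change with doxorubicin was 0.20 for genes under 10 kb, 0.14 from 10 to 30 kb, 0.06 from 30 to 100 kb, -0.12 from 100 to 300 kb and -0.52 for the 546 genes of at least 300 kb. In that longest class 52.9% were called lower and 15.4% higher, against 17.4% and 34.8% of genes under 10 kb. Without the listed genes, the median of the other 504 genes of at least 300 kb was -0.46, with 51% called lower. Without the filter on dim genes the median of the longest class was -0.12.

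With nutlin-3 the medians of the 5 classes lay between -0.04 and 0.05, and with DMSO against untreated between -0.06 and 0.04. Of the longest class 16.7% were called lower and 14.7% higher with nutlin-3. Across genes, Spearman's rank correlation of length and change was -0.18 with doxorubicin, -0.09 with nutlin-3 and -0.0005 with DMSO (13656 genes, which are not independent replicates and share the same arrays). Within the 42 very long genes the rank correlation was 0.17 with doxorubicin. Those of at least 1000 kb held 7 falls and 4 rises among 12, with a median of -0.40, and those from 500 to 800 kb held 10 falls and 1 rise among 13, with a median of -1.32. These are descriptions with no test.

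**Figure D3:**
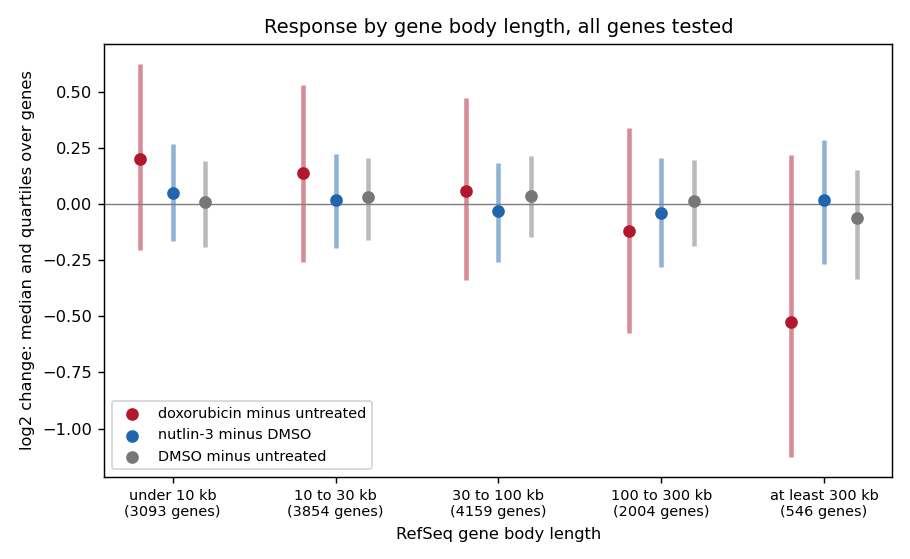
Median log2 change (points) and quartiles over genes (bars) in 5 classes of RefSeq gene body length, for doxorubicin against untreated (red), nutlin-3 against DMSO (blue) and DMSO against untreated (grey). The red points go from 0.20 under 10 kb to -0.52 at 300 kb or more, while the blue points stay between -0.04 and 0.05.

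Long genes outside the list also moved in both directions. The largest falls with doxorubicin among genes of at least 300 kb were those of GPC6 (-4.10), NRXN3 (-3.11) and TENM3 (-2.92), which encode a glypican, a neurexin and a teneurin. The largest rises were those of GABBR2 (3.74), SUGCT (3.23) and PCDH7 (2.86). With nutlin-3 the largest rises were those of SUGCT (3.62), LINC01088 (3.00) and OPCML (2.30). The largest falls were those of EPHA5 (-1.61), NCAM1 (-1.60) and GUCY1A2 (-1.59). On the DMSO arrays LINC01088 had a mean signal of 21.9 (SD 21.4) and OPCML of 34.1 (SD 30.2), both below the filter signal. Their nutlin-3 means were 254 and 207, so the sizes of both rises rest on dim and scattered control values. SUGCT went from a mean of 448 with DMSO to 5596 with nutlin-3.

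All probe sets of the very long genes were also tested one by one. Of 121 past the filter, 85 were called lower with doxorubicin, 15 higher and 21 neither. Over all 26393 single-gene probe sets past the filter, 25.8% were called lower and 24.2% higher. Of the 33 genes with 2 or more, 16 had all called lower, 8 had lower and uncalled ones, 4 had called ones in opposite directions (DOCK1, FNDC3B, RAD51B and WWOX) and THSD4 had all called higher. LPP counts among the 8.

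**Figure D4:**
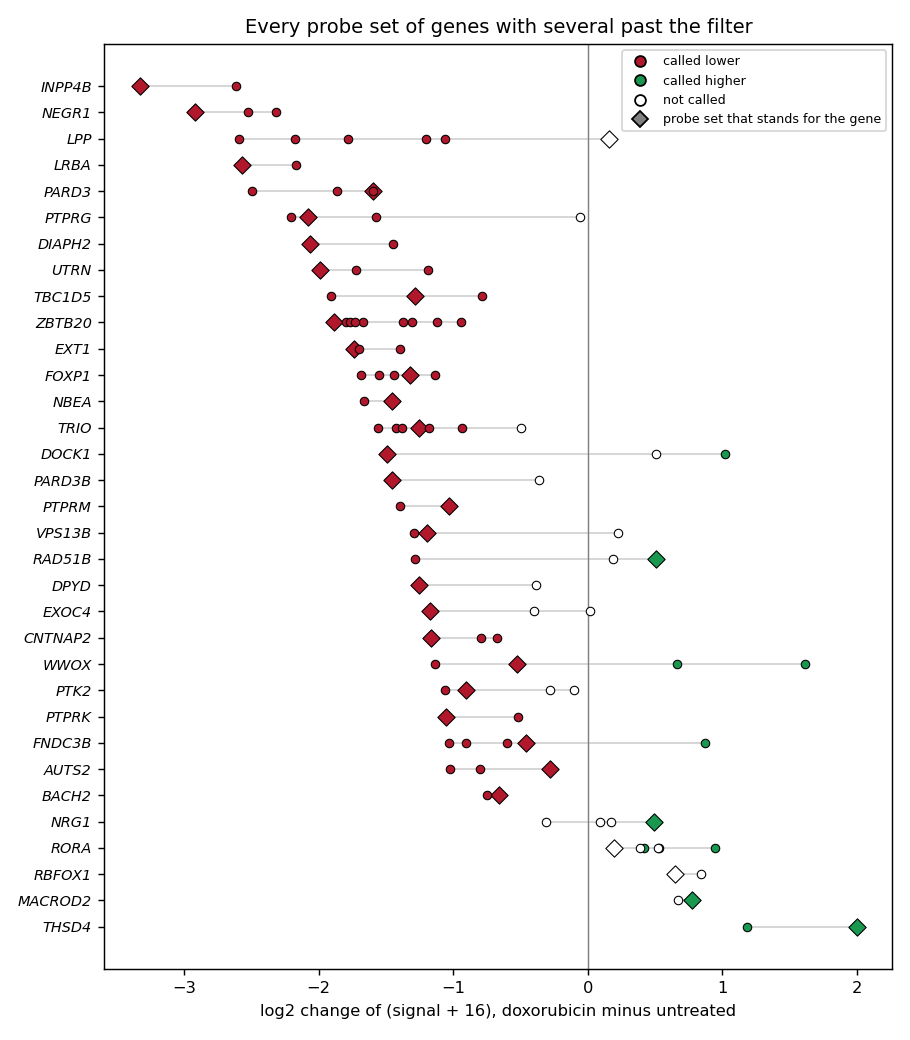
Log2 change with doxorubicin (x axis) of every probe set past the filter for the 33 very long genes with 2 or more, with red for called lower, green for called higher and white for not called. Diamonds mark the probe set that stands for the gene, and DOCK1, FNDC3B, RAD51B and WWOX have called probe sets on both sides of 0.

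Transcription elongation and topoisomerase genes, a list of 40 that is not particular to long transcripts, showed no common direction. Of the 36 tested, 13 were higher and 13 lower with doxorubicin, with a median of 0.05. Over all genes tested 30.1% were higher and 25.6% lower. With nutlin-3, 2 of the 36 were higher and 6 lower, beside 12.5% and 13.9% of all genes. POLR2A, the large subunit of RNA polymerase II, rose by 1.79 with doxorubicin. CDC73, a subunit of the PAF1 elongation complex, fell by 1.60, and HEXIM1, which holds the elongation kinase P-TEFb inactive, rose by 1.15.

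Markers of other cell types were read because many very long genes are known from neurons. Of 9 neuronal markers 5 passed the filter. Called higher were 3 with doxorubicin, beside 30.1% of all genes tested, and 3 with nutlin-3, beside 12.5%. SNAP25, a synaptic vesicle fusion protein, fell by 0.67 with nutlin-3 (limma adjusted p = 0.00067). The summed signal of the 9 markers was 5185 to 5878 on the untreated arrays, 14820 to 16250 with doxorubicin, 7325 to 7650 with DMSO and 15120 to 16580 with nutlin-3. NEFL, a neurofilament subunit, made up most of it, with means of 4416 untreated and 13753 with doxorubicin, while SYN1, GAP43, ELAVL4 and DCX were under the filter. Of 6 leukocyte markers 2 were tested, and LAPTM5 was higher with doxorubicin (2.345) and with nutlin-3 (1.84). Among 5 epithelial markers 3 were tested, of which EPCAM and KRT14 were lower with doxorubicin, beside 25.6% of all genes. Both were also called lower with DMSO against untreated (-0.68 and -1.79). Among 4 endothelial markers PECAM1 was tested and was not called. The part of these changes, and of the actin ratio, in the falls of the very long genes was not tested.

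Among the genes under the filter, the signal of NCKAP5, an NCK-associated protein, was 21.9, 24.3 and 21.0 untreated, 130.3, 96.2 and 117 with doxorubicin, 26.5, 21.1 and 20.3 with DMSO and 41.8, 69.1 and 23.5 with nutlin-3. Its doxorubicin arrays lay above all controls, although its mean over the 12 arrays kept it out of the tests. ERBB4, a neuregulin receptor, had means over the 12 arrays of 35.7, DLG2, a synaptic scaffold, of 35.1 and PTPRD of 21.7. The doxorubicin arrays of SUPT3H and ERBB4 also lay above all controls. For ERBB4 the margin was narrow, with 63.3, 57.3 and 40.13 against at most 40.08 on the untreated arrays. In the other genes under the filter the doxorubicin arrays overlapped the controls.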

How the data were processed

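Each of the 12 arrays is 1 sample, grouped by its title. The authors deposited linear signal intensity values, 1 for each probe set on each array, made with MAS5 per the submitters' processing notes; its version and settings are not given in the sources used here. Array medians lay between 79.61 and 113.6. No detection calls were used.

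From the table's 54675 probe sets, 62 controls were left out. The platform annotation pairs 41097 with 1 gene symbol, 1801 with several and does not list 11777. Symbols were updated through gene identifiers to RefSeq (GRCh38.p14), which gave a gene body length for 13656 of the 13673 genes tested (99.88%). A gene was the single-gene probe set with the highest mean log2 value, and genes under the 40th percentile of that mean (a signal of 49.31) were not tested. Values were log2(signal + 16), with the authors' scaling kept. They were fitted with limma 3.58.1 in R 4.3.3 (lmFit, eBayes with an intensity trend), as 4 group means over all 12 arrays with no block, and p-values were adjusted by Benjamini-Hochberg. The fit was tested on simulated data. The number of arrays limits the precision.

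The genes and lists were chosen with earlier results of these data known. Full values are given for up to 8 called rises and 8 called falls per agent and for the difference, the fragile site list, 6 further genes (PTK2, DOCK1, FTO, RAD51B, MAD1L1 and UTRN) and the 5 largest solvent changes. Outside the list, the rule took the 3 largest rises and falls per agent among genes of at least 300 kb and up to 3 elongation genes. LPP was described because its probe sets disagreed, and NCKAP5, SUPT3H and ERBB4 because of their signals with doxorubicin. These were chosen after their values were seen. Replicate numbers were not taken as pairs: same-numbered deviations correlated at -0.09 to -0.02 for doxorubicin and untreated and at -0.01 to 0.17 for nutlin-3 and DMSO.

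Alternatives covered scaling, pseudocount, filter, probe set choice, trend, arrays in the fit, a replicate block, thresholds and each array left out. A further 3 were added after the data were seen: the probe set with the highest linear mean, doxorubicin against DMSO, and only the doxorubicin array with the lowest actin ratio. The p53 transcript is not reported here.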

Additional observations from a re-analysis of the deposited data

Results flagged for a closer look

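PTPRM was flagged because it was called lower with doxorubicin and higher with nutlin-3, and the difference between the responses was called. That difference was -1.42 (SE 0.16, limma adjusted p = 3e-06). Its 3 doxorubicin arrays all lay below the untreated arrays and its 3 nutlin-3 arrays all above the DMSO arrays. The arrays of NBEA, SMYD3, VPS13B, FNDC3B, EXT1, PTK2 and TBC1D5 lay in the same order, with no nutlin-3 rise called in the main fit. The rise of PTPRM with nutlin-3 alone was not called without DMSO replicate 2 or nutlin-3 replicate 1. Its difference was called under every alternative run.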

How the results depend on the processing

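The count of very long genes lower with doxorubicin (32) stayed between 29 and 33 under all alternatives other than the 2-fold threshold, which left 25. Of these 32 falls, 26 kept call and direction wherever they were tested, apart from the stricter thresholds, and of the 7 rises 3 did (CSMD3, MAD1L1 and THSD4). Median centring moved the median of all genes from 0.08 to -0.10 and their calls from 4112 higher and 3504 lower to 2733 and 4389, and the very long genes still gave 32 lower. Their rises went from 7 to 4 with quantile scaling, to 3 with centring, an adjusted p under 0.01 or 2-fold, and to between 4 and 7 with 1 array left out (4 without untreated replicate 2). Rises with nutlin-3 went from 5 to 3 at either stricter threshold and to between 3 and 6 with 1 array left out (3 without DMSO replicate 2 or nutlin-3 replicate 1), and falls went from 7 to 4 with the mean of all probe sets and to 1 at 2-fold. The 1 higher difference became 2 with a pseudocount of 64, no filter, the mean of all probe sets, no trend or the lowest-ratio doxorubicin array alone, and 1 to 3 with 1 array left out (3 without untreated replicate 3, and 2 without doxorubicin replicate 2, doxorubicin replicate 3 or nutlin-3 replicate 3). The 9 solvent calls became 5 at 0.01, 0 at 2-fold, where limma gave 9 at the adjusted p alone, and 5 to 11 with 1 array left out.

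The median with doxorubicin (-1.17) was -1.24 with quantile scaling, -1.35 with centring, -1.22 and -1.05 with pseudocounts of 1 and 64, -0.97 with no filter, -1.24 with the 60th percentile, -0.89 with the mean of all probe sets, -1.22 without _x_at and _s_at sets, -1.20 for genes of at least 500 kb, -1.03 against DMSO, and -1.22 to -1.14 with 1 array left out. That of all genes of at least 300 kb (-0.52) was, in the same order, -0.61, -0.70, -0.56, -0.42, -0.12, -0.71 and -0.37, then -0.46 without the listed genes, -0.36 against DMSO, -0.50 with the lowest-ratio array alone and -0.55 to -0.50 with 1 array left out. With nutlin-3 it was 0.049 for the mean of all probe sets. The replicate block left 32 lower, 7 higher and a median of -1.17, and of the counts it changed that of solvent calls alone, from 9 to 10.

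Directions turned with the mean of all probe sets for WWOX (0.16), RAD51B (-0.20) and DOCK1 (0.0108), and against DMSO for AUTS2 (0.31). LPP turned with its probe set: with doxorubicin to -1.44 (mean of all), -1.78 (no _x_at or _s_at), -2.59 (linear mean), -2.38 (lowest-ratio array alone) and -2.40 to -1.69 with 1 doxorubicin array left out (up to 0.25 with another), and for the difference to -1.54, -1.92, -2.68, -2.47 and -2.49 to -1.82 (up to 0.39). For the other changes the cause was not tested. Dim signals limit FHIT, MACROD2, BACH2, the nutlin-3 rises of LINC01088 and OPCML, and the genes under the filter.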
